A study of Mus musculus with 6 samples.

Results

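The RNAs described here were 252 RefSeq noncoding RNA accessions measured in mouse bone-marrow-derived macrophages. They were the probes whose systematic name starts with NR_, RefSeq's prefix for noncoding RNA, and which the scanner software called well above background on both independent arrays of at least 1 group. The brightest such probe stood for its accession. These 252 were drawn from 757 noncoding accessions on the array, and from 15668 accessions of all kinds that passed the same filter, of which 11224 were coding (NM_). Of the 505 noncoding accessions left out, 433 were well above background on no array, 55 on 1 array and 17 on 2 or more arrays but on both arrays of neither group.

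All cells were polarized M2 macrophages grown from bone marrow of C57BL/6 mice aged 6 to 8 weeks, and the labels do not name the agent that polarized them. The WGP group was kept for 6 h in complete DMEM with whole glucan particles, and the medium group for 6 h in complete DMEM alone. Each group had 3 deposited files, but in both groups the file of replicate 3 held the same raw median signal as replicate 1 at all 44397 spots. Its processed signal was 1.30 times that of replicate 1 in the WGP group and the mean of replicates 1 and 2 in the medium group, so every value below rests on 2 arrays per group. WGP replicate 3 was averaged with WGP replicate 1, and medium replicate 3 was left out. The labels do not say that replicates came from separate mice or cultures, so the p-values reflect the spread among these arrays alone, which may be technical. Replicates 1 and 2 were hybridised on separate slides, each holding both groups, and each slide carried its WGP array at position 3 and its medium array at position 1, so that position and group cannot be told apart.

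Whole glucan particles are the beta-glucan shells of yeast cell walls, which macrophages bind through the receptor Dectin-1. Long noncoding RNAs are transcribed and spliced much like messenger RNAs but encode no known protein. Some act in the nucleus on genes near or far from their own locus, and others matter as carriers: microRNAs and small nucleolar RNAs (snoRNAs) are cut from the introns or exons of such host transcripts. Transcribed pseudogenes are copies of coding genes that no longer encode a working protein, and many are close in sequence to the gene they came from.

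Per array, 46.6% and 44.97% of 39429 probes were well above background with WGP, against 50.7% and 46.6% in medium. All 9 macrophage markers with a probe named for them were above background on both arrays of a group. Of 7 markers of alternative activation 5 were, while Arg1 and Retnla, the best known genes of the M2 state in mice, were above background on no array. Markers of other cells were above background on both arrays of a group for Cd3e, Cd4 and Cd8a of 5 T cell markers, Cd79a and Cd79b of 5 B cell markers, 4 of 5 fibroblast markers, 5 of 7 neutrophil and granulocyte markers and 1 each of 4 dendritic cell, 4 erythroid and 3 mast cell markers, while Cd3d, Cd3g, Ms4a1 and Pax5 were so on no array. Relative to the array's 75th percentile, the summed signal of the macrophage markers was 2359 and 2107 with WGP, against 2008 and 1916 in medium. That of the alternative activation markers was 51.1 and 52.2 with WGP, against 28.6 and 23.9 in medium. For markers of other cells, the sum was 28.3 and 35.1, against 33.2 and 34.9, for T cells. It was 20.1 and 19.7, against 23.9 and 19.3, for neutrophils and granulocytes, and 11.4 and 12.1, against 15.05 and 10.5, for fibroblasts. For B cell, dendritic cell, erythroid and mast cell markers it was under 1 on every array. The part of such cells in the differences below was not tested.

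The levels below are log2 signal minus the log2 of the array's 75th percentile, so that 0 is that percentile; levels of different probes are not comparable. Differences are WGP minus medium, tested with limma and adjusted by the Benjamini-Hochberg method over all 15668 accessions, with adjusted p under 0.05 as the threshold.

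With WGP, 26 noncoding accessions rose and 44 fell, and 182 did not pass the test. The 70 that passed were 27.8% of the 252, against 33.6% of all accessions and 36.4% of coding ones, of which 20.8% rose and 15.6% fell. Falls made up 17.5% of the noncoding accessions and 15.5% of all accessions, and rises 10.3% and 18.2%. The median difference was -0.14 over the 252 and -0.03 over all accessions, and within the 2 slides the noncoding median was -0.11 and -0.16. The noncoding RNAs were dimmer, with a median level of -0.63 against 0.29 over all accessions. Among those with a mean level of 0 or more, 16 rose and 14 fell (14.95% and 13.1% of them), where 24.0% of all accessions this bright rose and 14.3% fell. Among dimmer ones 10 rose and 30 fell (6.90% and 20.7%), where 11.4% of all accessions this dim rose and 16.8% fell. The share of rises among the calls depended on the scaling: it was 37.1% here and 54.1%, with 33 rises and 28 falls, when arrays were scaled to their median, where the share over all accessions was 71.1% in place of 54.0%. The groups did not overlap for 167 of the 252, against 72.7% of all accessions. Without medium replicate 1 the count of calls was 52, without medium replicate 2 it was 33, without WGP replicate 1 it was 31 and without WGP replicate 2 it was 29.

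**Figure D1:**
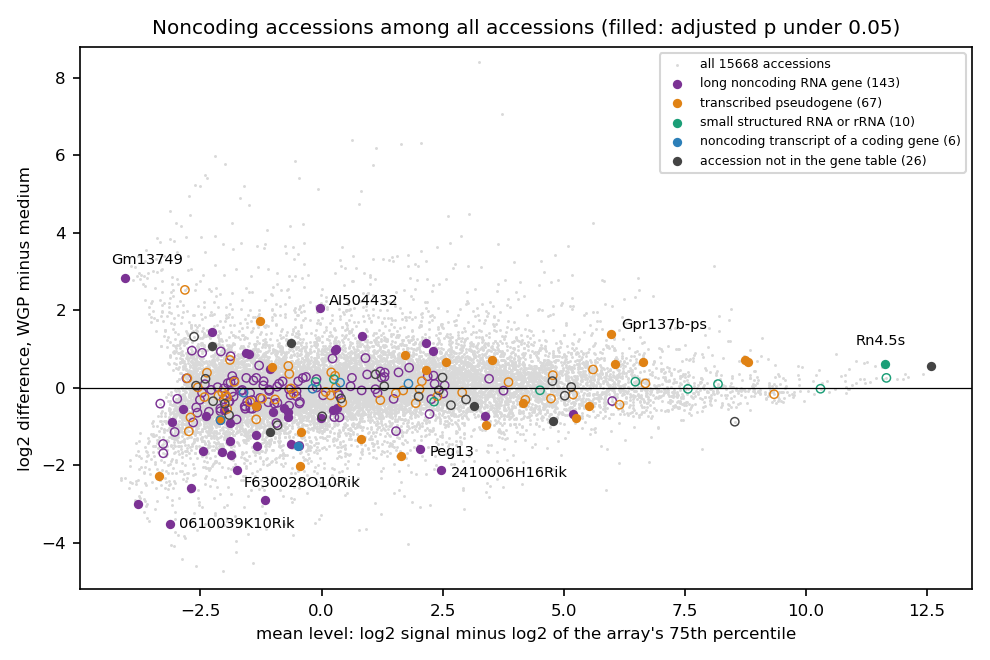
Log2 difference, WGP minus medium, against the mean level over both groups (log2 signal minus log2 of the array's 75th percentile) for all 15668 accessions in grey and for the 252 noncoding ones by class, filled where adjusted p was under 0.05. The 143 long noncoding RNAs lie mostly at low levels, with 29 filled points below 0 and 11 above it, and the 10 small structured RNAs and rRNAs lie further right, near 0.

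By the gene table, the 252 accessions held 143 long noncoding RNA genes, 67 transcribed pseudogenes, 10 small structured or ribosomal RNAs, 6 noncoding transcripts of coding genes and 26 accessions that the table does not list. The long noncoding RNAs gave 11 rises and 29 falls with a median of -0.19, and the pseudogenes 11 rises and 11 falls with a median of -0.14. Some of these falls were of RNAs that had passed the filter only through medium. Of the 114 long noncoding RNAs well above background on all 4 arrays, 9 rose and 18 fell (7.89% and 15.8%), with a median of -0.08. Of the 62 such pseudogenes 11 rose and 10 fell. Over all 143 and 67, the counts also varied with the scaling. With median scaling the rises and falls were 14 and 20 for the 143 long noncoding RNAs and 14 and 6 for the 67 pseudogenes. Among small structured RNAs 1 of 10 passed, among noncoding transcripts of coding genes 1 of 6, and among unlisted accessions 3 rose and 3 fell. On all 4 arrays, 213 of the 252 were well above background, of which 24 rose and 32 fell; of all accessions well above background on all 4 arrays 33% passed, 18.7% rising and 14.3% falling. Of the rest, 31 passed the filter through the medium arrays alone and 8 through the WGP arrays alone; 15 were well above background on no WGP array and 2 on no medium array.

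**Figure D2:**
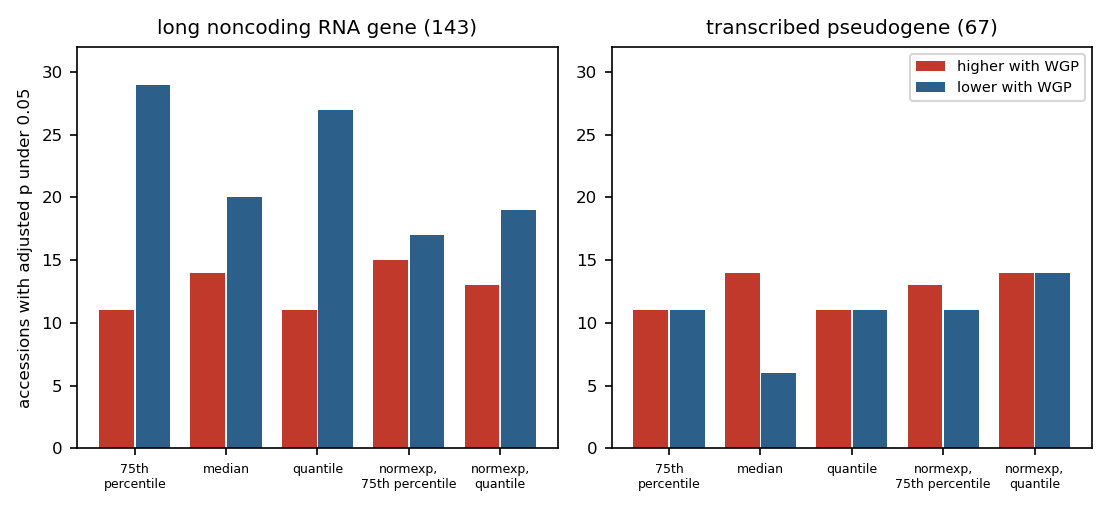
Number of long noncoding RNA genes (left, of 143) and transcribed pseudogenes (right, of 67) with adjusted p under 0.05 that were higher with WGP (red) and lower with WGP (blue), under 5 ways of scaling the arrays. Falls outnumber rises among long noncoding RNAs in each, by 29 to 11 with the 75th percentile and by 17 to 15 after normexp background correction with it. For pseudogenes the counts are equal in 3 and rises lead in the others. All 5 use the same filtered RNAs, some of which passed the filter only through medium, where they were high.

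Among members that hold microRNA genes some rose and some fell, as among all accessions. By coordinates, and by strand where the host's strand was known, 8 of the noncoding RNAs hold microRNA genes, of which 1 rose, 2 fell and 5 did not pass the test. Of all accessions 18.2% rose and 15.5% fell, and counts among 8 RNAs do not set such hosts apart. F630028O10Rik, 1 of the 2 that fell, had passed the filter only through medium. The probes measured the long host transcripts, and mature microRNAs were not measured. The 7 mature microRNAs on the strand of the 3 hosts that passed are shown because they are what these transcripts can yield; they come from RefSeq on GRCm38.p6, with the seed, bases 2 to 8 that pair with targets, in capitals. The 7 have 7 different seeds.
mmu-miR-223-5p (chrX:96242842-96242864, plus strand): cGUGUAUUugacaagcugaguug
mmu-miR-223-3p (chrX:96242884-96242905, plus strand): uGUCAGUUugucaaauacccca
mmu-miR-421-5p (chrX:103572966-103572986, minus strand): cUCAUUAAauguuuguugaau
mmu-miR-374b-3p (chrX:103573075-103573096, minus strand): gGUUGUAUuaucauuguccgag
mmu-miR-374b-5p (chrX:103573112-103573133, minus strand): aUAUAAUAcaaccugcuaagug
mmu-miR-22-5p (chr11:75463734-75463755, plus strand): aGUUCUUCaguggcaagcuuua
mmu-miR-22-3p (chr11:75463772-75463793, plus strand): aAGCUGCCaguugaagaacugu

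F630028O10Rik, the transcript that holds Mir223, the gene of a microRNA abundant in myeloid cells, fell by 2.12 on the log2 scale. Its levels were -2.78 and -2.84 with WGP, against -0.67 and -0.70 in medium. The groups were far apart and the arrays within each nearly equal (SE 0.10, adjusted p = 0.0027), and the probe was well above background on both medium arrays and on 1 of 2 WGP arrays. It had thus passed the filter only through medium, where it was high, so its direction was set by the filter. After normexp background correction, which pulls in dim signals, the difference was -0.49 and still passed. Ftx, a noncoding RNA of the X-inactivation centre that holds Mir421 and Mir374b, had levels of -1.74 and -2.17 with WGP, against -0.91 and -0.57 in medium. It fell by 1.21 (SE 0.21, adjusted p = 0.0217), with no overlap between the groups; its adjusted p was 0.052 without medium replicate 1, 0.083 without medium replicate 2 and 0.072 without WGP replicate 2.

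Mir22hg, the host of Mir22, had levels of 0.75 and 0.86 with WGP, against -0.38 and -0.03 in medium. It rose by 1.01 (SE 0.16, adjusted p = 0.0187), and its adjusted p was 0.067 without WGP replicate 1 and 0.082 without WGP replicate 2. Mir17hg, the host of a microRNA cluster that promotes cell growth, had levels of -1.66 and -2.36 with WGP, against -3.12 and -2.71 in medium, a difference of 0.90 that did not pass (adjusted p = 0.089) but did with median scaling (0.045). Dleu2, which holds Mir15a and Mir16-1, differed by -0.15 (adjusted p = 0.572). Mir99ahg, another named host, differed by -0.61 (adjusted p = 0.223) but by enough to pass without WGP replicate 2 (adjusted p = 0.044). Of the 4 accessions on the list of microRNA host genes, 1 rose and none fell, where 18.2% of all accessions rose and 15.5% fell. F630028O10Rik stood on the list of noncoding RNAs of innate immune cells.

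**Figure D3:**
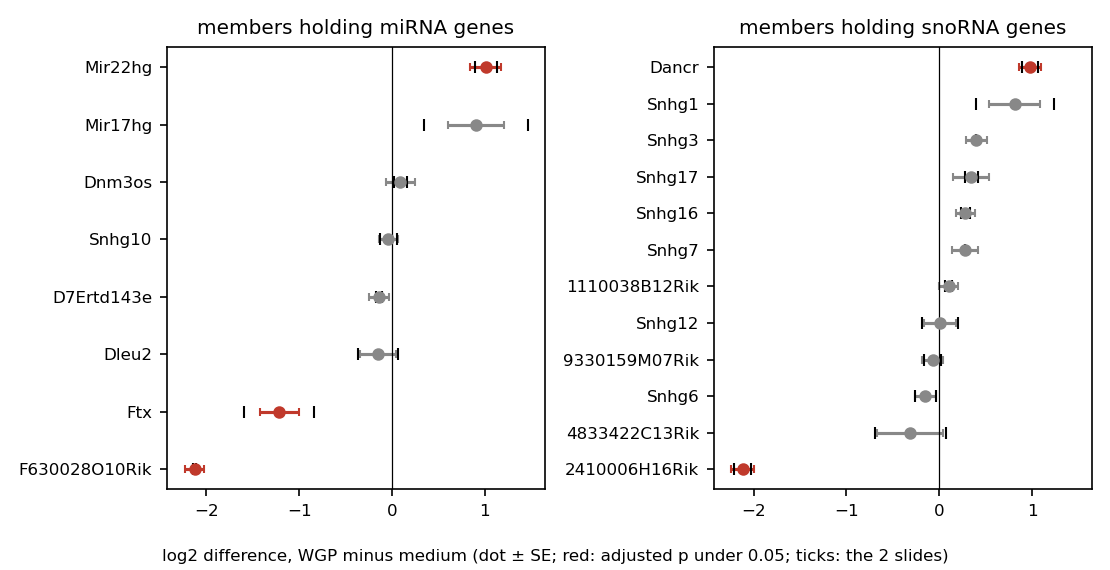
Log2 difference, WGP minus medium, of the 8 noncoding RNAs that hold microRNA genes (left) and the 12 that hold snoRNA genes (right). Shown are the mean with its SE, and ticks for the differences within the 2 slides. MicroRNA genes on the opposite strand were left out where the host's strand was known. F630028O10Rik and 2410006H16Rik lie near -2.12 on both slides, Mir22hg and Dancr near 1, and most of the others near 0.

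SnoRNA hosts, long noncoding RNAs whose introns yield the guides for modifying ribosomal and other RNAs, mostly did not pass the test, and the pair that did went opposite ways. Most of all accessions did not pass either: 33.6% passed, 18.2% rising and 15.5% falling. By coordinates, with the strand of the snoRNA genes not checked, 12 of the noncoding RNAs hold snoRNA genes, of which 1 rose, 1 fell and 10 did not pass, with a median difference of 0.19. On the list of snoRNA host genes, chosen by name, the counts were 1 rise and 1 fall of 11. 2410006H16Rik, the host of Snord49a, Snord49b and Snord65, had levels of 1.43 and 1.40 with WGP, against 3.64 and 3.43 in medium. It fell by 2.12 on the log2 scale, a 4.34-fold difference (SE 0.12, adjusted p = 0.0034) that passed with any array left out. Dancr, the host of Snora26, had levels of 0.86 and 0.67 with WGP, against -0.20 and -0.22 in medium. It rose by 0.97 (SE 0.12, adjusted p = 0.0108), with an adjusted p of 0.052 without medium replicate 2 and of 0.056 without WGP replicate 1. Snhg1, which holds 8 snoRNA genes, differed by 0.81 (adjusted p = 0.092) and passed without medium replicate 2 (0.036) and after normexp correction (0.035). Snhg3 differed by 0.40 (adjusted p = 0.062) and passed with median scaling (0.032) and with replicate 3 averaged with replicate 1 in both groups (0.036). Snhg12, Snhg7, Snhg16, Snhg17, Snhg10, Snhg6 and 1110038B12Rik lay between -0.15 and 0.34.

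Many snoRNA hosts start in a run of pyrimidines (C and T), a feature they share with ribosomal protein genes, whose translation depends on it. The 20 bases before and after the start of the 11 hosts found in RefSeq's promoter table (GRCm38.p6) are given in the order of their difference, lowest first, with the longest C and T run that reaches within 5 bases of the start in capitals. Where a gene has several starts, the start with the longest run is shown.
2410006H16Rik (chr11:62602857-62602896, plus strand): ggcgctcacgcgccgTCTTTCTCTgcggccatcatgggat
4833422C13Rik (chr13:91741853-91741892, minus strand): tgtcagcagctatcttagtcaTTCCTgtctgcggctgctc
9330159M07Rik (chr9:88858782-88858821, minus strand): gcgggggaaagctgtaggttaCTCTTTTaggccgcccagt
Snhg12 (chr4:132308658-132308697, plus strand): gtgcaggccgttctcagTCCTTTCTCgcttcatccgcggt
1110038B12Rik (chr17:34952452-34952491, minus strand): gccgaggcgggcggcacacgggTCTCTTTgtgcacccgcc
Snhg7 (chr2:26640225-26640264, minus strand): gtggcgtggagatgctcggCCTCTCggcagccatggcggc
Snhg16 (chr11:116671640-116671679, plus strand): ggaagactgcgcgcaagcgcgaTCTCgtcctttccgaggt
Snhg17 (chr2:158361490-158361529, minus strand): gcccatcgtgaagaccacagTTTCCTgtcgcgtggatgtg
Snhg3 (chr4:132353667-132353706, minus strand): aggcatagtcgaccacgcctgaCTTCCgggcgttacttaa
Snhg1 (chr19:8723467-8723506, plus strand): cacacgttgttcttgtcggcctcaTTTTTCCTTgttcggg
Dancr (chr5:74093040-74093079, plus strand): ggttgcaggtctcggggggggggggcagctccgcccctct

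A run of at least 6 was found for 7 of these 11 genes (63.6%), for 34 of the 118 genes in the set with a promoter in the table (28.8%) and for 23.04% of all 27025 genes there. This run was looked for after the values were seen. 2410006H16Rik, the host that fell, has a run of 9, as do Snhg12 and Snhg1, and Dancr, the host that rose, has none.

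The gene next to 2410006H16Rik went the other way. Lrrc75a, a coding gene that lies 0.078 kb from it, had levels of 4.33 and 4.36 with WGP, against 2.46 and 2.51 in medium. It rose by 1.86 (SE 0.10, adjusted p = 0.0031), where the host transcript fell by 2.12, so the adjoining genes went opposite ways. Trpv2, a cation channel gene 2.57 kb away, differed by -0.06 (adjusted p = 0.680).

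Long noncoding RNAs that overlap a coding gene mostly had a difference of the same sign as it. The gene table's coordinates placed 225 of the accessions, and 34 long noncoding RNAs overlapped a coding gene that passed the filter, giving 37 pairs. In 25 of the 37 pairs the differences had the same sign, and Pearson's r across pairs was 0.59 and Spearman's rho 0.54; pairs share the arrays, and some share a gene. Some of these RNAs passed the filter through the medium arrays alone. In the 30 pairs with both partners well above background on all 4 arrays, 20 had the same sign, and r was 0.33 and rho 0.36. Both members passed the test in 4 pairs, each in the same direction, but in 3 of them the noncoding RNA had passed the filter only through medium, where it was high, so the direction of those 3 noncoding RNAs was set by the filter. In the 71 pairs of genes that lay within 10 kb without overlap, 40 had the same sign, and r was 0.11 (33 of 54 and 0.097 with both partners well above background on all 4 arrays). Of the 4 such pairs in which both passed, 1 went the same way and 3 opposite ways, including the Lrrc75a pair. In the pair that went the same way, Foxd2os and Foxd2, the noncoding RNA had likewise passed the filter only through medium. The difference between overlapping and nearby pairs was not tested, and with probe sequences not used here, signal from the overlapping transcript cannot be told apart from the noncoding RNA's own.

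0610039K10Rik, which overlaps Serinc3, a gene of a membrane protein of the serine incorporator family, had levels of -4.98 and -4.82 with WGP, where no array was well above background, against -1.61 and -1.14 in medium. It was at least 3.90-fold lower with WGP (adjusted p = 0.0033), the bound being set by the dimmest probes well above background on the WGP arrays. Serinc3 had levels of 5.39 and 5.46 with WGP, against 6.67 and 6.43 in medium, and fell by 1.12 (adjusted p = 0.0099). 5031434O11Rik, which overlaps the lysine methyltransferase gene Setd7, had levels of -4.36 and -3.60 with WGP, both not well above background, against -1.45 and -1.35 in medium. It was at least 3.82-fold lower (adjusted p = 0.0089), and Setd7 fell by 1.13 (adjusted p = 0.0089). 6330407A03Rik, which overlaps Lyn, a Src-family kinase gene of myeloid and B cells, had levels of -3.10 and -2.14 with WGP, against -0.41 and 0.97 in medium, and fell by 2.90 (SE 0.59, adjusted p = 0.0307). Lyn fell by 1.46 (adjusted p = 0.0055). Gm11696 rose by 0.49 (adjusted p = 0.0475), and Gna13, the G protein subunit gene it overlaps, rose by 0.99 (adjusted p = 0.0080). Calls in these pairs were lost under some alternatives: 6330407A03Rik without medium replicate 2 or either WGP array (adjusted p at most 0.090), 5031434O11Rik without medium replicate 2 (0.052) and after normexp correction (0.105, with a difference of -0.20), Serinc3 without WGP replicate 1 (0.052), Gna13 without WGP replicate 1 (0.0505) and Gm11696 whichever of the 4 was left out (0.084 to 0.204).

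**Figure D4:**
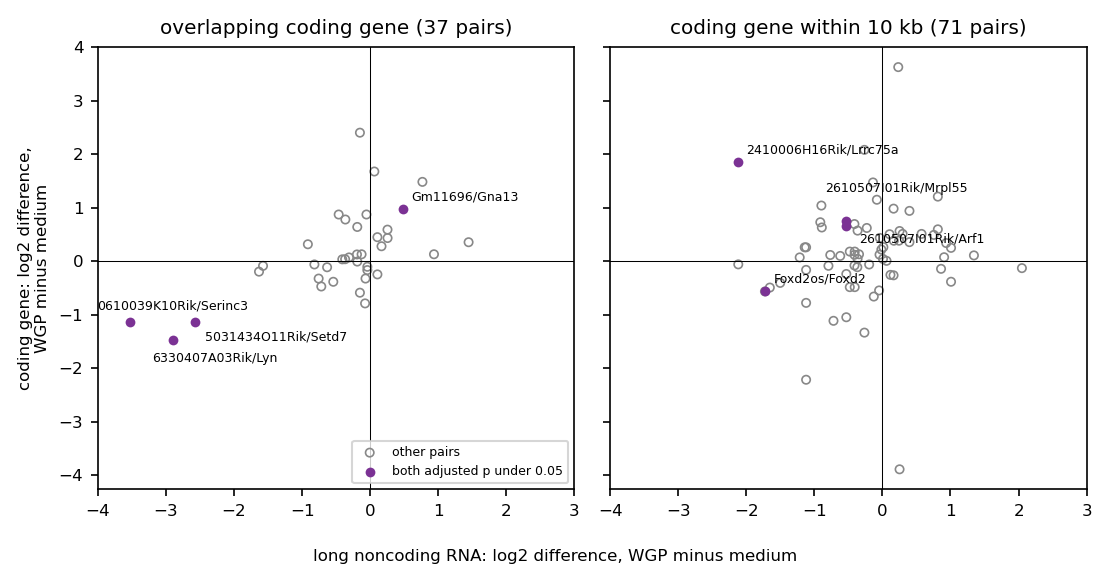
Log2 difference, WGP minus medium, of coding genes (vertical axis) against that of the long noncoding RNA (horizontal axis) that overlaps them (left, 37 pairs) or lies within 10 kb (right, 71 pairs), filled where both had an adjusted p under 0.05. The 4 filled pairs on the left lie in quadrants of the same sign, 3 of them with a noncoding RNA that passed the filter only through medium, and on the right 2410006H16Rik and Lrrc75a lie at -2.12 and 1.86.

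Other long noncoding RNAs fell without a coding partner that passed. Of these, Lockd, 4933439C10Rik, Gm10190, Mm2pr and Gm6225 had passed the filter only through medium, where they were high, so their direction was set by the filter. Lockd, transcribed downstream of Cdkn1b, the gene of the cell cycle inhibitor p27, had levels of -2.97 and -2.77 with WGP, both not well above background, against -1.17 and -1.26 in medium. Lockd was 3.15-fold lower as measured (adjusted p = 0.0047), its bound being no lower than that. Cdkn1b, 3.57 kb away, differed by -0.49 (adjusted p = 0.077). 4933439C10Rik was 3.10-fold lower, likewise as measured (adjusted p = 0.0089), and Zkscan17, which it overlaps, differed by -0.19 (adjusted p = 0.279). Gm10190 was at least 2.08-fold lower (adjusted p = 0.0084), and Mm2pr, an RNA whose symbol stands for M2 polarization of macrophages, was at least 1.61-fold lower (adjusted p = 0.0172), both with no WGP array well above background. After normexp correction the difference of Mm2pr turned to 0.13 and did not pass (adjusted p = 0.359), and those of Lockd, 4933439C10Rik and Gm10190 shrank to -0.14 (adjusted p = 0.218), -0.05 (adjusted p = 0.684) and -0.08 (adjusted p = 0.680). Gm6225 was at least 1.36-fold lower (adjusted p = 0.0396), with a difference of 0.10 after that correction. Mm2pr did not pass without medium replicate 2 or either WGP array (adjusted p at most 0.079), nor did Gm6225 whichever array was left out (0.092 to 0.174). 4831440E17Rik and 2310040G24Rik, well above background on all arrays, fell by 1.501 (adjusted p = 0.0065) and by 1.46 (adjusted p = 0.0085).

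The largest rise among RNAs well above background on all arrays was that of AI504432, a long noncoding RNA gene 1.38 kb from the potassium channel gene Kcna3. It had levels of 0.97 and 1.00 with WGP, against -1.13 and -0.996 in medium. It rose by 2.05, a 4.14-fold difference (SE 0.11, adjusted p = 0.0031), while Kcna3 differed by -0.13 (adjusted p = 0.640). AI662270, a long noncoding RNA gene 8.42 kb from Slfn3, had levels of 1.54 and 1.48 with WGP, against 0.15 and 0.17 in medium, and rose by 1.34 (SE 0.10, adjusted p = 0.0046); Slfn3 differed by 0.11 (adjusted p = 0.477). Dubr, a long noncoding RNA named for binding upstream of Dppa2, had levels of 2.85 and 2.64 with WGP, against 1.57 and 1.60 in medium. It rose by 1.16 (SE 0.12, adjusted p = 0.0082) and passed with any array left out. Gt(ROSA)26Sor, the RNA of the Rosa26 locus used for transgene insertion because it is active in most tissues, had levels of 2.87 and 2.65 with WGP, against 1.96 and 1.69 in medium, and rose by 0.94 (SE 0.15, adjusted p = 0.0190), with an adjusted p of 0.058 to 0.082 without medium replicate 2 or either WGP array. Gm10941 and Gm13749 were well above background on no medium array. With WGP, Gm10941 was 2.72-fold higher as measured (adjusted p = 0.0053) and Gm13749 at least 1.58-fold higher (adjusted p = 0.0033). Both had passed the filter only through WGP, where they were high, so their direction was set by the filter.

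**Figure D5:**
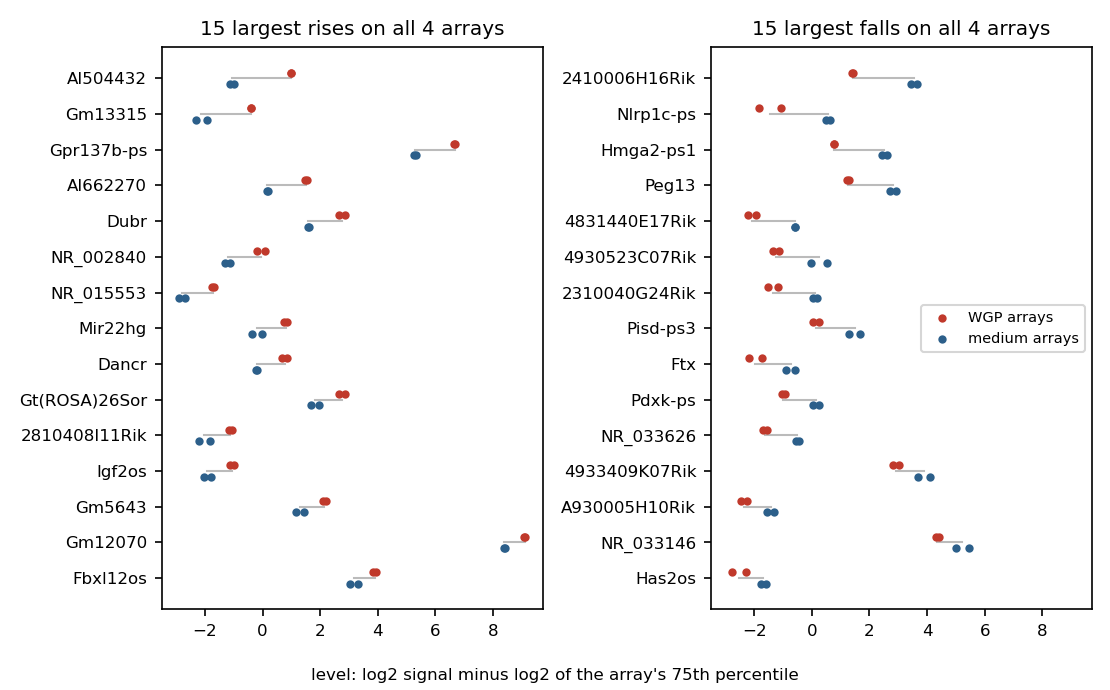
Levels on each array (log2 signal minus log2 of the array's 75th percentile) of the 15 noncoding RNAs with the largest rises and the 15 with the largest falls among those that passed the test and were well above background on all 4 arrays. Red points are the 2 WGP arrays, blue points the 2 medium arrays and grey lines join the group means. The groups do not overlap for any RNA shown, which follows largely from how these RNAs were picked. They did not overlap for 72.7% of all accessions.

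Imprinted noncoding RNAs, which are expressed from the maternal or the paternal chromosome alone, gave 1 rise and 1 fall among the 4 accessions on their list. Of all accessions 18.2% rose and 15.5% fell. Peg13, a paternally expressed RNA inside the gene Trappc9, had levels of 1.21 and 1.28 with WGP, against 2.92 and 2.72 in medium. It fell by 1.57 (SE 0.12, adjusted p = 0.0050) and passed with any array left out, while Trappc9 differed by -0.08 (adjusted p = 0.547). Igf2os, an RNA of the opposite strand at Igf2, had levels of -1.13 and -0.98 with WGP, against -1.79 and -2.05 in medium, and rose by 0.86 (SE 0.14, adjusted p = 0.0193), with an adjusted p of 0.063 to 0.089 without medium replicate 2 or either WGP array. Airn, the antisense RNA that silences Igf2r on the paternal chromosome, had levels of 1.30 and 1.28 with WGP, against 0.04 and 1.01 in medium. Its difference of 0.77 did not pass (adjusted p = 0.169), but did without medium replicate 2 (adjusted p = 0.032), whereas Igf2r, the receptor gene it overlaps, had levels of 2.14 and 2.13 with WGP, against 0.58 and 0.72 in medium, and rose by 1.49 (adjusted p = 0.0045). Kcnq1ot1 differed by -0.29 (adjusted p = 0.623).

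Malat1 and Neat1, the best known nuclear RNAs, did not pass the test. Of the 5 accessions on the list of X-inactivation and nuclear RNAs, Ftx alone passed, where 33.6% of all accessions passed. Malat1, an abundant RNA of nuclear speckles, had levels of 1.96 and 1.82 with WGP, against 2.35 and 2.79 in medium, a difference of -0.68 (adjusted p = 0.062). The groups did not overlap, and the adjusted p was 0.005 after normexp correction and 0.043 without medium replicate 1. Neat1, the scaffold of paraspeckles, differed by -0.34 (adjusted p = 0.175), with 0.009 after that correction. The accessions of Tug1 differed by 0.30 (adjusted p = 0.110) and 0.57 (adjusted p = 0.074), the second passing without medium replicate 2 (0.048) and after normexp correction (0.034). Of 3 accessions on the list for the p53 response and cell cycle, which holds both of Tug1, none passed; the third, Pvt1, an RNA next to the Myc gene, differed by 0.30 (adjusted p = 0.115).

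The list of noncoding RNAs of innate immune cells held 30 genes, of which 7 had a noncoding probe and 3 passed the filter. Of these 3, 2 fell, where 15.5% of all accessions fell, and 1 of the 2, F630028O10Rik, had passed the filter only through medium. Besides F630028O10Rik, Has2os, the antisense RNA of the hyaluronan synthase gene Has2, had levels of -2.77 and -2.29 with WGP, against -1.59 and -1.78 in medium, and fell by 0.85 (SE 0.21, adjusted p = 0.0451); the difference was lost after normexp correction (adjusted p = 0.999), and it did not pass with median scaling (0.087), with quantile normalization (0.079), with the slide as a block (0.065) or without medium replicate 1, medium replicate 2 or WGP replicate 1 (0.111 to 0.142). Mirt1 had levels of -0.04 and -2.39 with WGP, against 0.18 and 0.40 in medium, a difference of -1.51 that did not pass (adjusted p = 0.231) but did without WGP replicate 1 (0.018). Its WGP arrays lay far apart, with differences of -0.22 and -2.79 within the 2 slides.

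Small structured RNAs were among the brightest of the set, and 1 of the 10 passed the test, where 33.6% of all accessions passed. Small structured RNAs here are the RNAs of the ribosome, the spliceosome and other machines, which are short or not polyadenylated. On their list of 7 none passed. Rnu1b6, a U1 RNA of the spliceosome, had levels of 10.33 and 10.25 with WGP, against 10.43 and 10.21 in medium, and differed by -0.03 (adjusted p = 0.887). Rnu2-10, a U2 RNA, likewise differed by -0.03 (adjusted p = 0.850; -0.26 and 0.046 after normexp correction), Rmrp, the RNA of the ribonuclease that processes ribosomal and mitochondrial RNA, by 0.09 (adjusted p = 0.759), and Terc, the RNA template of telomerase, by 0.15 (adjusted p = 0.532). Rnu3b1, Rnu12, Snora47 and Snora74a lay between -0.36 and 0.22, and Snora74a passed after normexp correction (0.014). Rn28s1, the RNA of the large ribosomal subunit, differed by 0.25 (adjusted p = 0.154). Rn4.5s, a short rodent RNA, had levels of 11.97 and 11.89 with WGP, against 11.24 and 11.42 in medium, and rose by 0.60 (adjusted p = 0.0287); with quantile normalization the adjusted p was 0.178. NR_003278, the brightest accession and not named in the gene table, had levels of 12.94 and 12.82 with WGP, against 12.38 and 12.24 in medium, and rose by 0.57 (adjusted p = 0.0304), with an adjusted p of 0.487 after quantile normalization. Neither passed, whichever array was left out (adjusted p of 0.058 to 0.144). NR_003280, likewise bright and unnamed, had levels of 8.34 and 7.85 with WGP, against 9.21 and 8.73 in medium, a difference of -0.88 that did not pass (adjusted p = 0.069). Its groups did not overlap, and it passed with the slide as a block (0.0225), with quantile normalization (0.046) and after normexp correction (0.012).

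Pseudogenes named for a coding gene were set beside that gene. Of 10 such pairs 8 had the same sign, and in 4 both passed, 3 of them in the same direction. Gpr137b-ps had levels of 6.64 and 6.69 with WGP, against 5.26 and 5.32 in medium, and rose by 1.38 (SE 0.10, adjusted p = 0.0046). Gpr137b, a gene of a lysosomal membrane protein, had levels of 4.31 and 4.52 with WGP, against 3.07 and 3.14 in medium, and rose by 1.31 (adjusted p = 0.0067). Pdxk-ps fell by 1.14 (adjusted p = 0.0088) and Pdxk, the pyridoxal kinase gene that makes active vitamin B6, fell by 0.78 (adjusted p = 0.0120). Smarca5-ps rose by 0.45 (adjusted p = 0.0340) and Smarca5, a chromatin remodeller gene, rose by 0.81 (adjusted p = 0.0172). Without WGP replicate 1 or WGP replicate 2 Pdxk did not pass (adjusted p at most 0.071), nor did Smarca5-ps whichever array was left out (0.083 to 0.160) or Smarca5 without medium replicate 2 or either WGP array (at most 0.083). Whether the probes of such copies also bind the parent's RNA was not tested.

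Hmga2-ps1 was the exception. Its levels were 0.76 and 0.77 with WGP, against 2.60 and 2.44 in medium, and it fell by 1.76 (SE 0.11, adjusted p = 0.0039). Hmga2, a gene of a chromatin protein of growing cells, had levels of 1.33 and 1.30 with WGP, against 0.57 and 0.73 in medium, and rose by 0.67 (adjusted p = 0.0207). Among 7 RNAs named as the opposite strand of a gene, both partners passed in 2 pairs. Foxd2os fell by 1.73 (adjusted p = 0.0402) and Foxd2, a forkhead transcription factor gene, fell by 0.55 (adjusted p = 0.0291). Foxd2os had passed the filter only through medium, where it was high, so its direction was set by the filter. Fbxl12os rose by 0.71 (adjusted p = 0.0272) where Fbxl12, an F-box gene of protein turnover, fell by 0.70 (adjusted p = 0.0159). In the 5 genes with both a noncoding and a coding accession, in no pair did both pass. The calls of Hmga2, Foxd2os, Foxd2, Fbxl12os and Fbxl12 were each lost without some arrays, with an adjusted p of at most 0.103 for Hmga2 (without each of the 4), 0.136 for Foxd2os (without medium replicate 1 or 2), 0.145 for Foxd2 (without each of the 4), 0.117 for Fbxl12os and 0.085 for Fbxl12 (both without medium replicate 2 or either WGP array).

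Among the other pseudogenes, Gm13315 rose by 1.73 (adjusted p = 0.0071), with levels of -0.40 and -0.39 with WGP, against -1.93 and -2.32 in medium. Nlrp1c-ps, a relic of an inflammasome sensor gene, had levels of -1.08 and -1.82 with WGP, against 0.48 and 0.64 in medium, and fell by 2.01 (SE 0.28, adjusted p = 0.0141); its adjusted p was 0.057 without medium replicate 1 and 0.070 without medium replicate 2. Pisd-ps3 fell by 1.33 (adjusted p = 0.0127), and Ppp4r1l-ps, with no WGP array well above background, was at least 2.19-fold lower (adjusted p = 0.0221) but differed by -0.02 after normexp correction (adjusted p = 0.920); neither passed without WGP replicate 2 (0.057 and 0.074), nor did Ppp4r1l-ps without medium replicate 2 (0.060). Ppp4r1l-ps had passed the filter only through medium, where it was high, so its direction was set by the filter. Gm5523 and Gm12070, both bright, rose by 0.66 (adjusted p = 0.0196) and 0.72 (adjusted p = 0.0136), and a probe of Gm5523 that was dimmer had the opposite sign. With the mean of its probes Gm5523 differed by 0.26 and did not pass (adjusted p = 0.132). Gm5523 did not pass whichever array was left out (0.056 to 0.105) and Gm12070 did not pass without medium replicate 2 or either WGP array (0.051 to 0.081). 4930523C07Rik, a noncoding transcript of a coding gene, fell by 1.49 (adjusted p = 0.0161), with 0.052 and 0.065 without WGP replicate 1 and WGP replicate 2. Accession NR_002840, which the gene table does not list, rose by 1.16 (adjusted p = 0.0122, and 0.052 without WGP replicate 1), and 1 of its 3 probes had the opposite sign.

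The promoters of the noncoding RNAs were searched for 7 short motifs on both strands: GGGNNTTTC, a pattern like that bound by NF-kappaB, TGANTCA for AP-1, TGACGTCA for CREB, TTCNNNGAA for STAT factors, GAGGAAGT for PU.1 and other ETS factors, the E-box CACGTG and TATAAA. A promoter here is the 300 bases from 250 before to 50 after the start in RefSeq (GRCm38.p6), and 118 of the genes had 1 in the table, 6 of them of RNAs that rose and 23 of RNAs that fell. The NF-kappaB-like pattern was in 5.93% of the 118 and in 5.06% of all 27025 genes, the AP-1 pattern in 6.78% and 8.97%, CREB's in 1.69% and 2.03%, the STAT pattern in 11.0% and 9.55%, the ETS pattern in 3.39% and 3.69%, the E-box in 11.0% and 8.09% and the TATA box in 15.3% and 15.7%. Of the promoters of RNAs that fell, 2 of 23 held the NF-kappaB-like pattern, 2 the STAT pattern, 2 the TATA box, 1 the AP-1 pattern, 1 the E-box and none the others. Of those that rose, 1 of 6 held the STAT pattern, 1 the AP-1 pattern, 1 the E-box and none the others. The promoters of the 3 microRNA hosts that passed are shown as starts from which Mir223, Mir421 with Mir374b, and Mir22 may be transcribed; none of these promoters holds a match to the 7 motifs.
F630028O10Rik (chrX:96239676-96239975, plus strand): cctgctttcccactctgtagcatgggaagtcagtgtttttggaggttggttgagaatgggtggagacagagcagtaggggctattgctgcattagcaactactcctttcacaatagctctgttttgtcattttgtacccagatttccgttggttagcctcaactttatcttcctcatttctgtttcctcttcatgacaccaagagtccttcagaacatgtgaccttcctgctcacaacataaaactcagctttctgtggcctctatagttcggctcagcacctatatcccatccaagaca
Ftx (chrX:103623705-103624004, minus strand): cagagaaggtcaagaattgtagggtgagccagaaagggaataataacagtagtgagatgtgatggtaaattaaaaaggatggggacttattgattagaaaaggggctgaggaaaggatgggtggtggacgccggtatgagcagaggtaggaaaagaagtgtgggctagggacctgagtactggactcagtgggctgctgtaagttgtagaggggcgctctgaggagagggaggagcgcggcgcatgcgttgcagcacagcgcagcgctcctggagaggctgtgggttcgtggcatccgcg
Mir22hg (chr11:75461289-75461588, plus strand): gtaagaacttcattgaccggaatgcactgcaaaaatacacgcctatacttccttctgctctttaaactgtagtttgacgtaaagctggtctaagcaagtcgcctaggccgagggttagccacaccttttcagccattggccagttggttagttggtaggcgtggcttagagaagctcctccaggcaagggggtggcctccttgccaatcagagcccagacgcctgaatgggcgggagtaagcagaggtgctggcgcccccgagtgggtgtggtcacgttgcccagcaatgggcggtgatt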

How the data were processed

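The samples were 6 files of 1-colour (Cy3) Agilent arrays, 3 labelled WGP and 3 labelled medium, read out by Feature Extraction 10.7.3 of Agilent (named in the submitters' processing notes). The deposited values used are intensities of spots, from which background and a spatial trend had been removed, per the file headers, without scaling between arrays. The authors also deposited a table of log2 values, which correlated at 0.9999 with the scaled signals after centring each probe, with a largest difference of 0.0107; its column medians were 0.0997, 0.130 and 0.100 for WGP and -0.0145, 0.164 and 0.103 for medium, the baseline of its centring is unknown, and it served as an alternative only. The array design names probes on mm9, and genes and sequences come from RefSeq's GRCm38.p6 tables, in which 701 of the 757 noncoding accessions and 226 of the 252 described were found, in 224 genes.

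Files within a group were compared spot by spot. Replicates 1 and 2 differed in raw median signal at 42356 (WGP) and 43490 (medium) of 44397 spots, and replicates 1 and 3 at 0. The processed signals of replicate 3 were within 0.488% of 1.30 times replicate 1 (WGP) and within 0.695% of the mean of replicates 1 and 2 (medium).

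Control spots (1377) and outlier spots (118 to 183 an array) were left out, and no spot was saturated. Levels are log2 of the processed signal minus log2 of each array's 75th percentile, which was 59.2 and 56.1 with WGP and 85.8 and 68.6 in medium. Differences were fitted with limma 3.58.1 in R 4.3.3 over 15668 accessions (2 residual and 2.07 prior degrees of freedom), without the slide as a block, with Benjamini-Hochberg adjustment and a threshold of 0.05; the code was tested on simulated data. The number of arrays limits the precision. Replicate numbers mark slides, per the file headers, and the deviations of same-numbered arrays from their group means correlated at 0.16 over 2 pairs.

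The RNAs, gene lists and tests were chosen with earlier results of these data known. Named RNAs are the 15 largest rises and falls well above background on all arrays, the 8 highest bounds in each direction, the listed RNAs, the 10 brightest and those with a partner of opposite sign; the coding neighbours (also over pairs well above background on all arrays), the RNAs by snoRNA or microRNA content (microRNA and host strands from RefSeq's tables), 6330407A03Rik, F630028O10Rik's probe level and pyrimidine runs were added after the values were seen. Where no array of a group was well above background, a bound is given in place of a fold: the other group's mean level minus the dim group's mean of, per array, the higher of the lowest level well above background and the probe's own. Where the probe's own levels were the higher, as for Lockd, 4933439C10Rik and Gm10941, the bound is the measured fold. The bounds hold only for signals without normexp correction. The alternatives were other scalings and background corrections, the deposited table, no filter, other uses of replicate 3, the slide as a block and leaving out each array.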

Additional observations from a re-analysis of the deposited data

How the results depend on the processing

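Of the 70 noncoding RNAs that passed the test, 19 (7 rises and 12 falls) also passed without each array in turn; the counts then ranged from 29 to 52 of 252 noncoding accessions and from 1809 to 3378 of all accessions. With all 6 files taken as samples 144 noncoding and 10139 of all accessions passed, a count that treats replicate 3 as independent, and with no filter on dim probes 14 of 757 noncoding and 935 of 33241 accessions passed. With the slide as a replicate block 62 noncoding accessions passed, 21 higher and 41 lower, and 4580 of all accessions. Of the 70, 57 still passed. All 70 had the same sign within both slides, which follows largely from their choice by the test. Both slides gave the same sign for 195 of all 252 noncoding accessions and for 12818 of all 15668 accessions. Among the named RNAs the block ended the calls of Has2os, Rn4.5s and Gm6225 and added that of NR_003280 (adjusted p = 0.0225). Under median scaling 54 of the 70 still passed, all 26 rises and 28 of the 44 falls; this scaling moved the median difference of all accessions to 0.14. Differences of dim RNAs shrank under normexp with an offset of 50: that of 0610039K10Rik was -0.33, and Mm2pr and Gm6225 reversed, to 0.134 (adjusted p = 0.359) and 0.100 (adjusted p = 0.476), neither past the threshold. The cause was not tested. Quantile normalization, the deposited table, the mean of kept probes, leaving out the replicate 3 files and averaging both of them with replicate 1 gave 69, 71, 69, 70 and 90 calls among the noncoding accessions.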
